A study of Mus musculus with 9 samples.

Results

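The miRNAs described here are the 6 mature products of 3 related mouse hairpins, miR-28a, miR-151 and miR-708, each of which gives a miRNA from its 5p arm and another from its 3p arm. They are the entries mmu-miR-28a-5p, mmu-miR-28a-3p, mmu-miR-151-5p, mmu-miR-151-3p, mmu-miR-708-5p and mmu-miR-708-3p of the deposited table of raw counts, 6 of its 1966 mature miRNAs, and all 6 had reads in each of the 9 libraries. The libraries hold small RNA of mouse quadriceps, 3 per group, at an age of 90 days by the labels. The labels number the replicates without saying that each is 1 animal. The p-values thus set differences between groups against the variation between libraries. The libraries are called mice below for short. WT mice are labelled C57BL/6J, Mbnl1+/+ and Mbnl2+/+. Mbnl1KO mice are labelled C57BL/6J, Mbnl1 ΔE3/ΔE3 and Mbnl2+/+. Mbnl2KO mice are labelled B6.C-Tg(CMV-cre)1Cgn/J, a strain that carries Cre under the ubiquitous CMV promoter, with Mbnl1+/+ and a Mbnl2 genotype that the labels give as ΔE2/ΔE2 in replicate 1, ΔE2/ΔE3 in replicate 2 and ΔE2/ΔE4 in replicate 3. The paper's text names a single Mbnl2 genotype, and whether the alleles in these labels really differ was not settled here, so the 3 libraries were used as 1 group. The strain label goes with the Mbnl2KO group, and the strain and the loss of Mbnl2 cannot be told apart. MBNL1 and MBNL2 are RNA-binding proteins of muscle best known as splicing regulators, and the study asked which miRNAs depend on them. Neither Mbnl1 nor Mbnl2 mRNA is counted in small RNA libraries, so the knockouts were not checked here. The miRNAs were chosen by name, with earlier results of these libraries known, and no value or threshold for the choice is given. Those results included increases of both miR-708 arms in Mbnl2KO and of miR-708-5p in Mbnl1KO, so the differences of miR-708 are treated as used in the choice and given below as a description, without a p-value. The p-values of the other 4 arms come from fits across all miRNAs, and these arms too were chosen with earlier results known. The comparisons of each knockout with WT share the WT libraries.

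A miRNA guides a silencing complex to messenger RNAs mainly through its seed, bases 2 to 8 from the 5′ end, so miRNAs with the same seed are expected to share targets. miR-28, miR-151 and miR-708 descend from an old family of mobile elements and lie in introns of protein-coding genes. In background work, miR-708 is known from quiescent muscle stem cells and from the response to stress in the endoplasmic reticulum, miR-28 from B lymphocytes, where it restrains growth, and miR-151 from the migration of tumour cells, together with its host gene Ptk2, which encodes focal adhesion kinase.

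The mature sequences of miR-28a and miR-708 show how the family is related and which arms can act alike. They were taken from RefSeq (build GRCm38.p6), in which 4 of the 6 names were matched, and are written 5′ to 3′ with the seed in capitals. miR-28b, another annotated relative, is added for comparison.
miR-28a-5p: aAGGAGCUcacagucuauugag
miR-708-5p: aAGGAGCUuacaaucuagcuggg
miR-28b: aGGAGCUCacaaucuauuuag
miR-28a-3p: cACUAGAUugugagcugcugga
miR-708-3p: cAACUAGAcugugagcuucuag
On GRCm38.p6, miR-28a-5p lies at chr16:24827868-24827889 and miR-28a-3p at chr16:24827908-24827929. miR-708-5p lies at chr7:96249450-96249472 and miR-708-3p at chr7:96249496-96249517, and all 4 are on the plus strand. miR-28b is annotated at chr8:73016523-73016543, also on the plus strand.

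The 5p arms of miR-28a and miR-708 have the same seed, AGGAGCU, and among the 1679 mature names in the RefSeq table they were the only 2 with it. Over the first 22 bases they agreed at 16 positions. Counted from 1 at the 5′ end of miR-28a-5p, the 6 differences were C9U, G13A, U18G, U19C, G20U and A21G, all of them outside the seed. The 3p arms matched best when miR-28a-3p was shifted by 1 base against miR-708-3p, with 17 of 21 aligned bases equal, and because of that shift their seeds, ACUAGAU and AACUAGA, are not the same. No other mature name carried either 3p seed. miR-28b starts 1 base later than miR-28a-5p on the shared sequence and has the seed GGAGCUC. miR-28b and miR-28c were listed at 0 in all 9 libraries, which is not read here as absence from muscle.

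Each hairpin has a single locus in the GENCODE annotation of GRCm39, so its reads need not be divided between copies. Mir28a (ENSMUSG00000065494.3) lies at chr16:24646605-24646690 on the plus strand, in intron 8 of Lpp, which encodes an adaptor protein of focal adhesions. Mir151 (ENSMUSG00000065612.3) lies at chr15:73126664-73126731 on the minus strand, in intron 25 of Ptk2. Mir708 (ENSMUSG00000076143.3) lies at chr7:95898631-95898739 on the plus strand, in intron 1 of Tenm4, which encodes a teneurin, a transmembrane protein of cell contacts. Introns are numbered in the canonical transcript, and each hairpin is on the strand of its host and overlaps no exon of a protein-coding gene. The intron is 82814 bases long for Mir28a, 14556 for Mir151 and 143365 for Mir708. The mRNAs of the hosts are not measured in these libraries.

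The libraries held 4761271 to 6277018 counts, of which the 6 miRNAs took 0.0693% to 0.0926%. Levels are given below as normalized counts, on a scale common to the 9 libraries (counts divided by the library total and its TMM factor, times the geometric mean of the totals). Mature miRNAs are of about equal length, so no correction for length was made. Amplified reads are not single molecules and adapters join different miRNAs with different efficiency, so an order of levels is an order of reads. The order by the mean of all 9 libraries was miR-151-5p (3239 normalized counts), miR-28a-5p (562), miR-151-3p (485), miR-28a-3p (248), miR-708-5p (53.3) and miR-708-3p (17.1). Among the 909 miRNAs with a count these ranked 45th, 91st, 95th, 122nd, 197th and 258th. miR-151-5p was above miR-28a-5p, miR-151-3p above miR-28a-3p, miR-28a-3p above miR-708-5p, and miR-708-5p above miR-708-3p in all 9 libraries. miR-28a-5p and miR-151-3p were the exception. miR-28a-5p was the lower of this pair in 3 of 3 WT libraries and the higher in 3 of 3 Mbnl1KO libraries and 2 of 3 Mbnl2KO libraries.

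**Figure D1:**
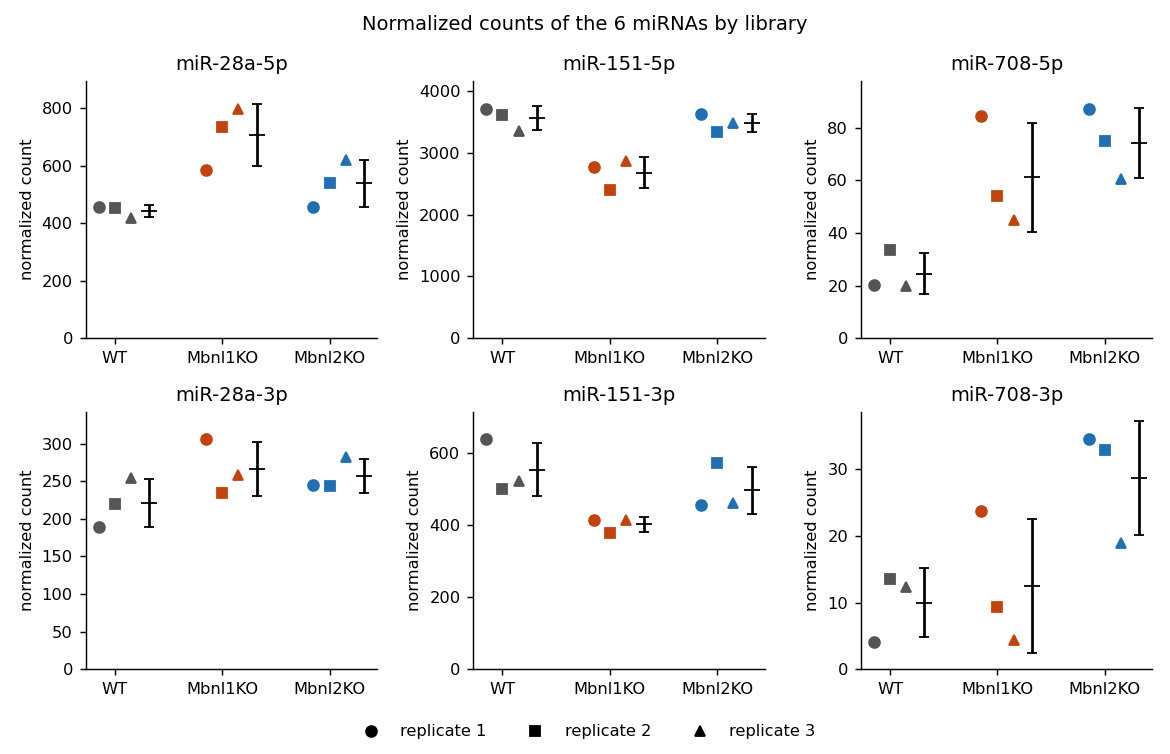
Normalized count (y axis, linear, from 0) of each of the 6 miRNAs in each library. Points are single mice, with the symbol giving the replicate number, and the black bar at the right of each group is the mean ± SD of 3 mice. All 3 Mbnl1KO mice lie above all WT mice for miR-28a-5p and below them for both arms of miR-151, whereas both knockouts lie above WT for miR-708-5p.

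The 5p arm of miR-28a rose in Mbnl1KO. miR-28a-5p had 455, 454 and 419 normalized counts in the WT mice and 586, 733 and 798 in the Mbnl1KO mice. Every Mbnl1KO library lay above every WT library, and the lowest of them by more than the whole WT range. WT averaged 443 ± 20.6 and Mbnl1KO 706 ± 109 (SD, 3 libraries each). On the log2 scale the fitted increase was 0.60 with a standard error of 0.166, and the quasi-likelihood test of edgeR gave it an adjusted p of 0.0023. The increase was also present in CPM, counts scaled to the library total alone, with 130 to 147 in Mbnl1KO against 71.0 to 76.9 in WT. In bulk muscle, more or fewer cells of a type and more or less miRNA per cell cannot be told apart.

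In Mbnl2KO the miR-28a-5p counts were 458, 539 and 619, each above the highest WT value, the first of them by only 3 normalized counts. The fitted difference was 0.28 (log2, 95% interval −0.03 to 0.58) and did not pass (edgeR adjusted p 0.341). In CPM the groups overlapped, with 75.7, 101 and 89.4 in Mbnl2KO against 71.0 to 76.9 in WT. The other arm, miR-28a-3p, had 189, 220 and 254 normalized counts in WT, 306, 235 and 258 in Mbnl1KO, and 246, 243 and 283 in Mbnl2KO. The 3 groups overlapped. Its log2 fold change was 0.20 in Mbnl1KO (95% interval −0.16 to 0.56) and 0.22 in Mbnl2KO (−0.11 to 0.55), and neither passed the threshold (adjusted p = 0.396 and 0.511, edgeR).

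miR-151 fell in Mbnl1KO in both arms. miR-151-5p had 3714, 3618 and 3347 normalized counts in WT and 2770, 2394 and 2864 in Mbnl1KO. No library of one group reached the range of the other. WT averaged 3560 ± 190 and Mbnl1KO 2676 ± 248 (SD, 3 libraries each). On the log2 scale the fitted difference was −0.48 with a standard error of 0.145 (edgeR adjusted p 0.0052). miR-151-3p had 639, 502 and 523 normalized counts in WT and 414, 379 and 416 in Mbnl1KO. Its groups did not overlap either, and the fitted difference was −0.54 on the log2 scale with a standard error of 0.168 (edgeR adjusted p 0.0081).

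The fall of miR-151 was read relative to the other miRNAs. Scaled by library totals alone, the middle of the log2 fold changes over all tested miRNAs (318 in that fit) shifted to 0.30 from −0.01, the value of miR-151-5p was −0.17 (edgeR adjusted p 0.508) and that of miR-151-3p −0.22 (edgeR adjusted p 0.449). With miR-1a-3p left out of those totals, miR-151-5p stood at −0.42 (edgeR adjusted p 0.0218) and miR-151-3p at −0.46 (edgeR adjusted p 0.0278), both past the threshold. In CPM, miR-151-5p stood at 567 to 613 in WT and at 613, 436 and 528 in Mbnl1KO replicates 1, 2 and 3, so on that scale the groups overlapped, as they did for miR-151-3p (85.1 to 103 in WT and 69.1 to 91.6 in Mbnl1KO). Without WT replicate 1 neither arm passed the threshold (adjusted p = 0.0597 for miR-151-5p and 0.137 for miR-151-3p, edgeR). The summed level of the skeletal muscle miRNAs, mostly miR-1a-3p, was 3249480 to 4166260 normalized counts in Mbnl1KO and 4549350 to 4838680 in WT, and its part in the change of miR-151 was not tested. That sum follows miR-1a-3p, which was lower in every Mbnl1KO library than in any WT library, with a fitted difference of −0.40 that just missed the threshold (log2, 95% interval −0.73 to −0.07, edgeR adjusted p 0.0502). Of the 5 tested members of the list, 2 rose in Mbnl1KO, where 18.9% of all tested miRNAs were higher. They were miR-206-3p, by 1.93, and miR-133b-3p, by 0.71 (log2, edgeR adjusted p 4.4e-21 and 0.0172), while miR-133a-3p stood at 0.03. The paper, which used DESeq2, differs on 2 of these. It reported a significant fall of miR-1 and no significant rise of miR-133b.

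In Mbnl2KO miR-151-5p had 3629, 3338 and 3473 normalized counts, within or next to the WT range. The fitted difference was −0.03 (log2, edgeR adjusted p 0.916) with a 95% interval of −0.29 to 0.22, an interval that includes falls of up to 0.29. miR-151-3p had 457, 574 and 463 normalized counts there, and 2 of the 3 libraries were below the WT range. The fitted difference was −0.16 (log2, edgeR adjusted p 0.583) with a 95% interval of −0.48 to 0.15.

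miR-708 was the rarest of the 3 hairpins, and the fitted differences of its 5p arm from WT were larger than those of the other hairpins in both knockouts. The miR-708-5p counts were 20.2, 33.7 and 19.8 normalized counts in WT, 84.3, 54.2 and 44.9 in Mbnl1KO, and 87.3, 75.1 and 60.6 in Mbnl2KO. All 6 knockout libraries were above all 3 WT libraries, and the ranges of the knockouts overlapped each other. The means were 24.6 ± 7.9 in WT, 61.1 ± 20.6 in Mbnl1KO and 74.3 ± 13.3 in Mbnl2KO (SD, n = 3 each). As a description, the fitted log2 fold change was 1.23 (standard error 0.319) in Mbnl1KO and 1.58 (standard error 0.283) in Mbnl2KO, or 2.35-fold and 2.99-fold. These values were known when the family was proposed.

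The 3p arm of miR-708 was also higher in Mbnl2KO, a difference treated as used in the choice. It had 4.0, 13.5 and 12.4 normalized counts in WT and 34.5, 32.9 and 18.9 in Mbnl2KO, where the lowest library was above the highest WT library. The fitted log2 fold change was 1.55 (standard error 0.421). In Mbnl1KO the values were 23.8, 9.4 and 4.3, which lay within the WT range in replicates 2 and 3 and above it in replicate 1, and the fitted log2 fold change was 0.30 (standard error 0.494). Mbnl1KO replicate 1 was the highest of its group for both arms of miR-708. These values rest on few reads. WT replicate 1 had 4 reads of miR-708-3p, with an exact Poisson 95% interval of 1.09 to 10.2, and the highest library, Mbnl2KO replicate 2, had 35 (24.4 to 48.7). For miR-708-5p the lowest library had 16 reads and the highest 110. Such intervals cover counting error only, and the SD between mice was larger than counting error in every group for both arms. For miR-708-3p in Mbnl1KO it was 80.8% of the mean against 25.8% from counting, and for miR-708-5p in WT 32.1% against 20.6%.

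Across the 4 arms of miR-28a and miR-151, 3 passed an adjusted p of 0.05 between Mbnl1KO and WT in edgeR, 1 of them higher and 2 lower. Of the 317 miRNAs tested there, 33.1% passed, 18.9% higher and 14.2% lower. These 3 arms also had groups that did not overlap, as 42.6% of all tested miRNAs had, 24.6% higher and 18% lower. With 4 arms of 2 hairpins, this share is not a result about the family. Between Mbnl2KO and WT none of the 4 passed, with edgeR's adjusted p, with its unadjusted p under 0.05 or with DESeq2 (0 in each case), where 5.8% of the 293 tested miRNAs passed in edgeR, 3.41% higher and 2.39% lower. Of the 4, only miR-28a-5p had groups that did not overlap, on the TMM scale but not in CPM, against 24.9% of all tested miRNAs, 14% higher and 10.9% lower. Counting miR-708 too, 4 of 6 lay past the threshold in Mbnl1KO and 2 of 6 in Mbnl2KO, but those of miR-708 are treated as used in the choice and nothing is read from these counts. The median log2 fold change of the 4 arms was −0.14 in Mbnl1KO and 0.09 in Mbnl2KO, against −0.01 and 0.02 for all tested miRNAs. The hairpins thus moved in different directions in Mbnl1KO, and the median of the family describes none of them.

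**Figure D2:**
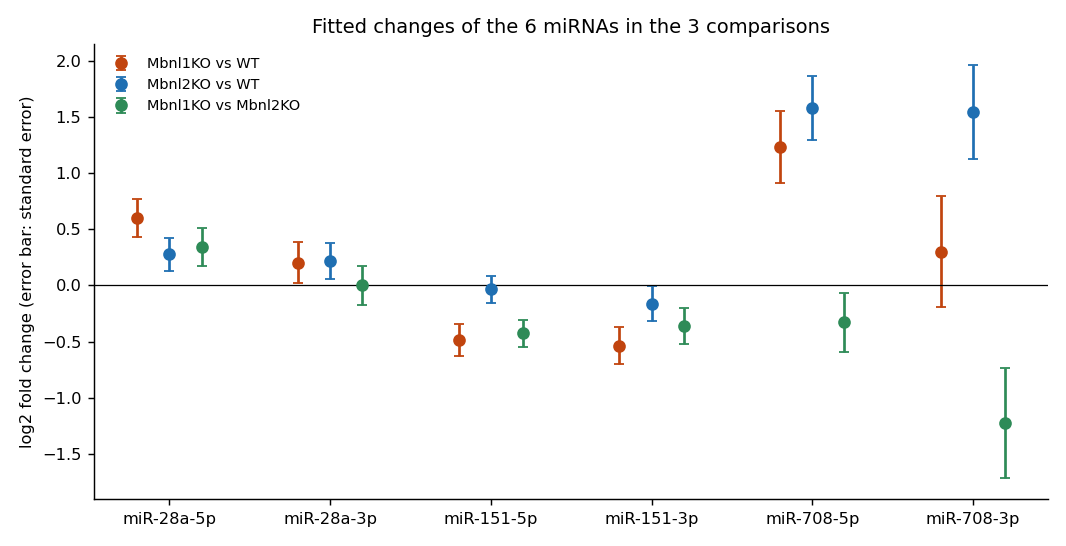
Fitted log2 fold change (y axis) of the 6 miRNAs in the 3 comparisons of groups, each with its standard error from edgeR's quasi-likelihood fit to 6 libraries. miR-28a-5p (0.60) and both arms of miR-151 (−0.48 and −0.54) lie on opposite sides of 0 in Mbnl1KO, and both arms of miR-708 lie near 1.5 to 1.6 in Mbnl2KO.

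**Figure D3:**
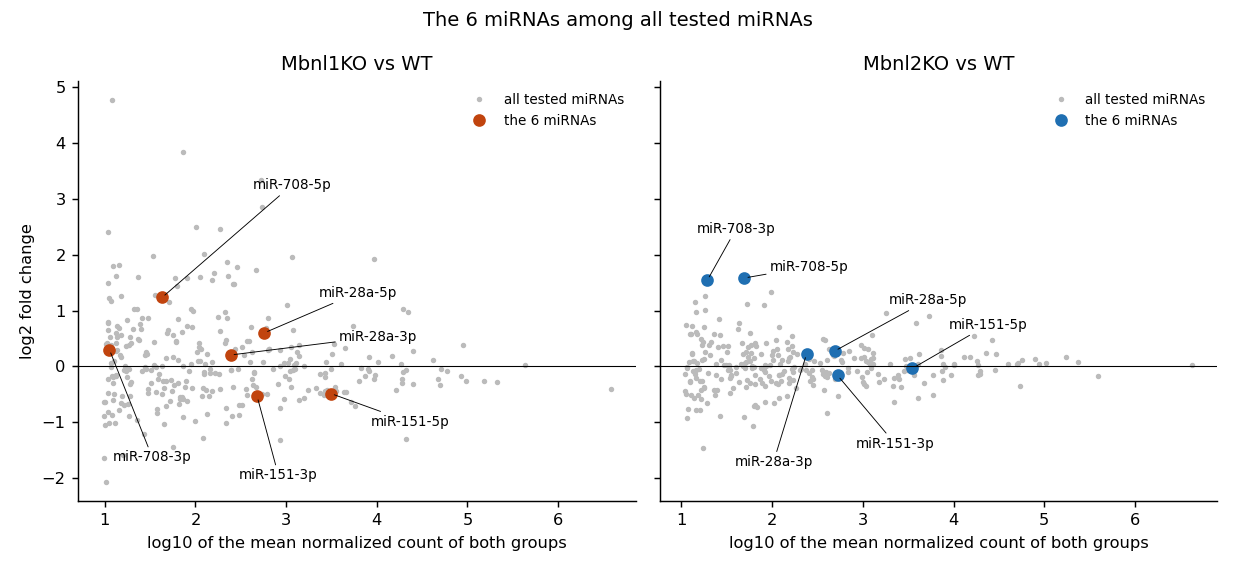
Log2 fold change (y axis) against the log10 of the mean normalized count of both groups (x axis) for all tested miRNAs, 317 in Mbnl1KO vs WT and 293 in Mbnl2KO vs WT. The 6 miRNAs are marked and named, with miR-708 toward the low end of the counts.

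The comparison of the knockouts with each other leaves out the WT mice. miR-151-5p was lower in Mbnl1KO than in Mbnl2KO by a fitted log2 difference of −0.43 with a standard error of 0.122 (edgeR adjusted p 0.0167), and the groups did not overlap. It was the only one of the 4 arms of miR-28a and miR-151 past the threshold, where 26.9% of 309 tested miRNAs were, 15.2% higher and 11.7% lower in Mbnl1KO. Without Mbnl2KO replicate 1 its edgeR adjusted p was 0.0525, without the filter on low counts it was 0.0641, and scaled by library totals the difference was −0.13 (edgeR adjusted p 0.707). miR-151-3p also had groups that did not overlap, as 46% of tested miRNAs had (25.9% higher, 20.1% lower). Its fitted difference was −0.36 (log2, edgeR adjusted p 0.108) with a 95% interval of −0.70 to −0.02. Scaled by library totals it was −0.07 (edgeR adjusted p 0.892), and in CPM the groups overlapped, with 69.1 to 91.6 in Mbnl1KO against 67.0 to 107 in Mbnl2KO. For miR-28a-5p the fitted difference was 0.34 (log2, edgeR adjusted p 0.143) with a 95% interval of −0.01 to 0.70, and 0.62 scaled by library totals (edgeR adjusted p 0.0421). miR-28a-3p stood at 0.00 with a 95% interval of −0.36 to 0.37, which includes the value of miR-28a-5p. As a description, the fitted difference of miR-708-5p was −0.33 (standard error 0.265) and that of miR-708-3p −1.23 (standard error 0.491). That of miR-708-5p ranged from −0.63 to −0.14 with single libraries left out and was −0.02 scaled by library totals. The groups overlapped for miR-708-5p, and for miR-708-3p because of Mbnl1KO replicate 1. Without that mouse the fitted difference of miR-708-3p was −2.13, and without Mbnl1KO replicate 3 it was −0.81.

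Ratios of 2 miRNAs within a library do not depend on its scaling, and were added after the values had been seen, so no test is given. For every 100 reads of miR-151-5p there were 12.2, 12.6 and 12.5 reads of miR-28a-5p in the WT mice. This ratio was 21.2, 30.6 and 27.9 in Mbnl1KO and 12.6, 16.1 and 17.8 in Mbnl2KO. The WT mice averaged 12.4 ± 0.166 (SD, n = 3), all 3 Mbnl1KO mice were above every WT and every Mbnl2KO mouse, and the lowest Mbnl2KO mouse was next to WT. For the 3p arms of the same hairpins, the reads of miR-28a-3p per 100 reads of miR-151-3p ranged from 29.6 to 48.6 in the WT libraries, from 61.8 to 73.9 in those of Mbnl1KO and from 42.4 to 61.0 in those of Mbnl2KO. The Mbnl1KO mice were again above all others. Reads of miR-708-5p per 100 of miR-151-5p ranged from 0.544 to 0.931 in the WT libraries, from 1.57 to 3.04 in those of Mbnl1KO and from 1.74 to 2.40 in those of Mbnl2KO. Here both knockouts were apart from WT and not from each other. Such ratios show unequal change and not which of the 2 miRNAs changed.

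**Figure D4:**
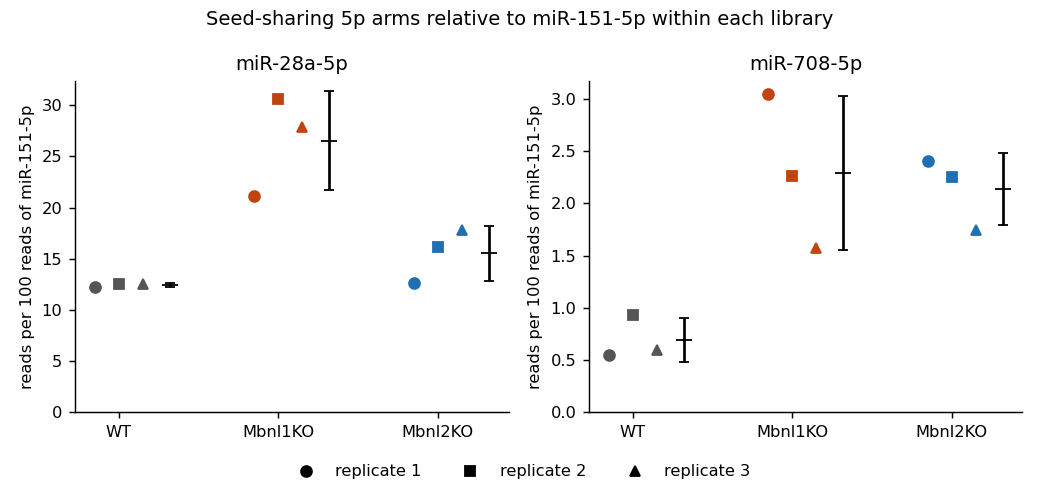
Reads of miR-28a-5p (left) and miR-708-5p (right) per 100 reads of miR-151-5p in the same library (y axes, linear, from 0). Points are single mice, the symbol gives the replicate number, and black bars are mean ± SD of 3 mice. For miR-28a-5p the WT mice sit at 12.2 to 12.6 and the Mbnl1KO mice at 21.2 to 30.6, whereas for miR-708-5p both knockouts sit above the highest WT mouse at 0.931.

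Reads of miR-28a-5p and miR-708-5p, which share a seed, were also added up. The sum was 475, 488 and 439 normalized counts in WT, 670, 787 and 843 in Mbnl1KO, and 545, 614 and 679 in Mbnl2KO. All knockout libraries were above all WT libraries. miR-28a-5p made up most of the sum in every library, and miR-708-5p contributed between 4.26% and 6.90% of it in WT, between 5.33% and 12.6% in Mbnl1KO and between 8.92% and 16.0% in Mbnl2KO. The share of miR-708-5p was above WT in every Mbnl2KO mouse, while in Mbnl1KO it overlapped WT. The sum includes miR-708-5p and is given without a test.

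Whether the arms of a hairpin change together bears on the step at which a miRNA is regulated, a question the study raised for its hairpins. The 5p arm took most reads of each hairpin in every library. For miR-151 its share of the reads of both arms lay between 85.3% and 87.8% in WT, between 86.3% and 87.3% in Mbnl1KO and between 85.3% and 88.8% in Mbnl2KO, and the groups overlapped. The difference from WT was 0.339 percentage points in Mbnl1KO (exact two-sided permutation test, p = 0.7) and 0.922 in Mbnl2KO (exact p = 0.5), where 3 against 3 mice cannot give a p below 0.1.

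For miR-28a the 5p share was 70.6%, 67.3% and 62.2% in WT, 65.7%, 75.8% and 75.6% in Mbnl1KO, and 65.1%, 68.9% and 68.6% in Mbnl2KO. Mbnl1KO replicates 2 and 3 were above all other mice, and Mbnl1KO replicate 1 was within the WT range, with an exact 95% binomial interval of 62.9% to 68.4% against 72.9% to 78.5% in replicate 2, intervals that cover counting error only. The difference from WT was 5.60 percentage points in Mbnl1KO (exact permutation p = 0.3; 3.35 without WT replicate 3 and 8.91 without Mbnl1KO replicate 1) and 0.797 in Mbnl2KO (exact p = 0.8). Thus miR-28a-5p passed the threshold in Mbnl1KO and miR-28a-3p did not, and the difference in the balance of the arms was within the spread between mice. For miR-708 the 5p share was 83.3%, 71.4% and 61.5% in WT, 78.0%, 85.2% and 91.2% in Mbnl1KO, and 71.7%, 69.6% and 76.2% in Mbnl2KO. The Mbnl1KO mice were all above the Mbnl2KO mice, and both groups overlapped WT, where only 24 to 49 reads of both arms were counted per library.

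**Figure D5:**
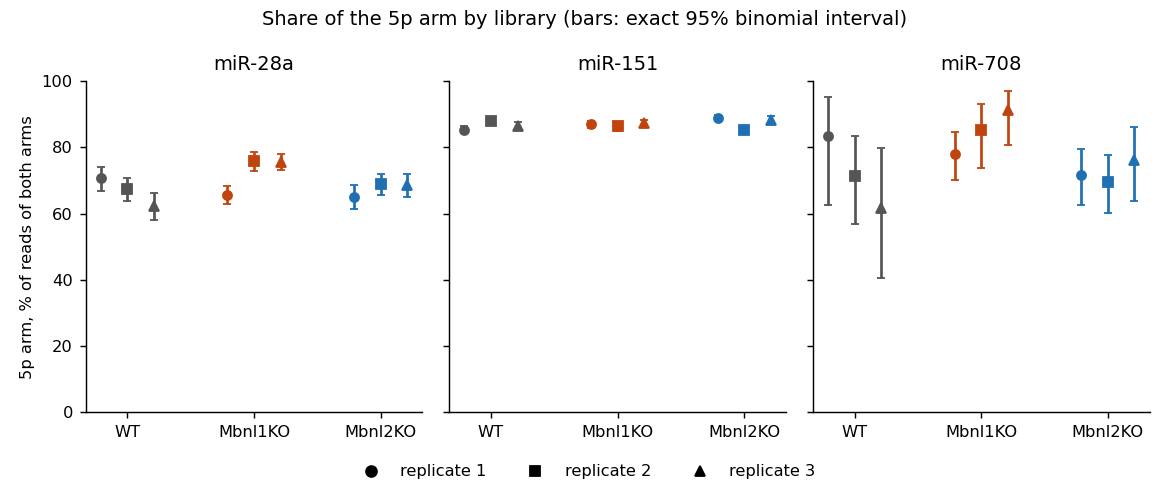
Reads of the 5p arm as a percentage of the reads of both arms (y axis, 0 to 100%) for each hairpin and library. Points are single mice, the symbol gives the replicate number, and bars are exact 95% binomial intervals, which cover counting error only. The intervals are narrow for miR-151 (2661 to 4306 reads per library) and wide for miR-708 (24 to 141 reads), and knockouts and WT overlap in each hairpin.

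The patterns most like those of the family over the 9 libraries were sought among 308 miRNAs of other hairpins with a mean above 10, by Pearson correlation of log2 normalized counts, given as a description. The points of each correlation share the libraries and fall into the same groups. miR-151-5p was closest to miR-664-3p (r = 0.985), which had 400 ± 33.1 normalized counts in WT, 260 ± 37.8 in Mbnl1KO and 358 ± 23.4 in Mbnl2KO (SD, n = 3), and then to miR-92a-3p (r = 0.962). miR-151-3p was closest to miR-181a-1-3p (r = 0.942) and to miR-92a-3p (r = 0.828). miR-28a-5p was closest to miR-377-3p (r = 0.925) and miR-409-5p (r = 0.913), both from a large imprinted cluster of miRNAs. miR-28a-3p was closest to miR-31-5p (r = 0.841) and miR-26b-5p (r = 0.787). miR-708-5p was closest to miR-15b-5p (r = 0.887) and miR-148a-3p (r = 0.860), and miR-708-3p to miR-10a-5p (r = 0.848) and miR-15b-5p (r = 0.839). Within the family, the arms of miR-151 had r = 0.774, those of miR-708 r = 0.700 and those of miR-28a r = 0.383, while miR-28a-5p and miR-151-5p had r = −0.770.

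The tissue label was checked against marker miRNAs. Of the 7 miRNAs listed for skeletal muscle, 6 had counts, led by miR-1a-3p with 3320562 to 4385815 reads per library, and miR-486a-5p was listed at 0 in all 9 libraries. The paper names miR-486 among the most deregulated miRNAs of Mbnl1KO muscle, so an entry listed at 0 is not read here as absence. Among miRNAs of other cells, the summed level of those of vessel wall and connective tissue lay between 35739 and 37848 normalized counts in WT, between 33925 and 48864 in Mbnl1KO and between 43958 and 49655 in Mbnl2KO. It was higher in each Mbnl2KO mouse than in any WT mouse, as miR-708 was. Of its 7 members, 5 were tested and 1 rose in Mbnl2KO, where 3.41% of all tested miRNAs were higher. This was miR-143-3p, by 0.48 on the log2 scale (edgeR adjusted p 0.0169), while both arms of miR-126a were listed at 0. In Mbnl1KO, where 14.2% of all tested miRNAs were lower, 1 of the 5 fell, miR-199a-3p with −0.43 (log2, edgeR adjusted p 0.0139). Of the skeletal muscle list, miR-206-3p also rose in Mbnl2KO, by 0.89 (log2, edgeR adjusted p 0.00076). The part of these lists in the levels of miR-708 was not tested. The summed level of 8 immune and blood miRNAs lay between 2691 and 3150 in WT, between 2771 and 3412 in Mbnl1KO and between 2937 and 3169 in Mbnl2KO, and the groups overlapped. Of its 6 tested members, 1 rose and 3 fell in Mbnl1KO, where 18.9% of all tested miRNAs were higher and 14.2% lower, and miR-142a-3p was listed at 0. Of 3 miRNAs listed for nerve, miR-124-3p had at most 3 reads and miR-9-5p none, so the list rested on miR-128-3p, which muscle also expresses. Its sum lay between 2669 and 3255 in WT, between 3362 and 3805 in Mbnl1KO and between 2294 and 3126 in Mbnl2KO. It was higher in each Mbnl1KO mouse than in any WT mouse, as miR-28a-5p and 24.6% of all tested miRNAs were. The fitted difference of miR-128-3p in Mbnl1KO was 0.22 and did not pass (log2, edgeR adjusted p 0.236). The part of this list in the increase of miR-28a-5p was not tested.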

How the data were processed

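Small RNA of 9 quadriceps libraries was counted per mature miRNA. The authors deposited 1 table of raw counts per library, without normalization. By the paper's methods, clipped and collapsed reads were matched without mismatch to miRBase precursors and summed within each mature miRNA and a small margin around it; whether this made the deposited table is not stated in it, and the submitters' processing notes name DESeq2. Totals were 4761271 to 6277018 per library, and 1057 of 1966 entries were at 0 in all libraries. For every comparison, the 6 libraries of its groups entered 1 robust quasi-likelihood fit of edgeR, limited to miRNAs whose normalized count averaged more than 10, and TMM factors were computed again on these. P-values were adjusted by Benjamini-Hochberg over all miRNAs of the fit, at a threshold of 0.05. Standard errors are the log2 fold change divided by the square root of F. Ranges of groups were compared on the scale of all 9 libraries. Shares of arms were compared with exact permutation tests. Pairs of replicate libraries differed by more than counting error (chi-square per degree of freedom 38.8 to 272). Members, lists and tests were chosen with earlier results of these data known. Named miRNAs were the 6 members, the 2 closest patterns of each, and relatives by seed or name. Alternatives were other scalings, DESeq2, other filters, all 9 libraries in 1 fit, a replicate block, each library left out and a threshold of 0.01. Fits ran in R 4.3.3 with edgeR 4.0.16 and DESeq2 1.42.0. Tables and plots came from Python 3.11.15 with NumPy 2.4.6, SciPy 1.17.1, matplotlib 3.10.9 and pandas 2.3.3.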

Additional observations from a re-analysis of the deposited data

Results flagged for a closer look

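The level of miR-151-5p differed between the knockouts, with a log2 fold change of −0.43 in Mbnl1KO against Mbnl2KO in a direct test of both groups. It was the only such difference among the 4 arms of miR-28a and miR-151 past the threshold of 0.05 on adjusted p-values of edgeR. Of 309 tested miRNAs 26.9% passed, so 1 of 4 is near that share. The difference depended on the scaling. With library totals it was −0.13 (edgeR adjusted p 0.707), and miR-28a-5p passed in its place (edgeR adjusted p 0.0421). The 2 knockouts also differ in their strain label. Groups of 3 mice are too small for a search for single outlying mice.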

How the results depend on the processing

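The counts in this paragraph describe the settings, and nothing is read from them about the 6 miRNAs. The number of the 6 miRNAs past the threshold in Mbnl1KO against WT was 4, where 105 of 317 tested miRNAs passed. These 4 include miR-708-5p, which is treated as used in the choice. The number was 2 with library totals alone, where 101 of 318 tested miRNAs passed and both arms of miR-151 were lost. It was 3 with a mean normalized count above 100, which left 4 of the 6 to test. It was 2 to 4 with single libraries left out, the 2 being without WT replicate 1, where 75 of 319 tested miRNAs passed. In Mbnl2KO, where 17 of 293 tested miRNAs passed, it was 2, both of them arms of miR-708. Their increases were known when the family was chosen, so these counts describe the settings and support nothing. It was 1 at the threshold of 0.01, with library totals, with totals without miR-1a-3p, with DESeq2's Wald test and with all 9 libraries in 1 fit, and 0 with a mean normalized count above 100, a filter that both miR-708 arms fail. It was 1 to 2 with single libraries left out. miR-28a-5p in Mbnl1KO was past it in all 15 alternatives, with adjusted p-values of 9.7e-05 to 0.0284. Between the knockouts the number was 1, where 83 of 309 tested miRNAs passed. It was 0 at the threshold of 0.01 and 0 to 2 with single libraries left out. The arm counted was miR-151-5p, past the threshold in 11 of 15 alternatives. It was lost at 0.01, without Mbnl2KO replicate 1, without the filter on low counts (adjusted p 0.0641, where miR-708-3p was counted in its place) and with library totals (adjusted p 0.707, where miR-28a-5p was). With the replicate block it was 2, since miR-708-3p was added, 4 in Mbnl1KO and 2 in Mbnl2KO. The labels do not pair the replicate numbers across groups. After the mean of each group was subtracted from log2 counts, same-numbered mice correlated with r between −0.16 and 0.08. Differently numbered mice correlated with r between −0.16 and 0.17.

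Some signs changed. miR-708-3p in Mbnl1KO was −0.064 without WT replicate 1 (−0.064 to 0.71 with single libraries left out), and miR-151-5p in Mbnl2KO was 0.019 without Mbnl2KO replicate 2 (−0.11 to 0.019). miR-28a-3p between the knockouts was −0.045 with DESeq2's size factors, −0.044 with DESeq2's Wald test, −0.00265 with the replicate block, and −0.10 to 0.043 with single libraries left out (−0.10 without Mbnl1KO replicate 1, −0.05 without Mbnl2KO replicate 1, −0.02 without Mbnl2KO replicate 2). With single libraries left out, the difference in 5p share ranged from −1.45 to 2.75 percentage points for miR-28a in Mbnl2KO, from −0.269 to 0.974 for miR-151 in Mbnl1KO and from −1.65 to 0.0973 for miR-151 between the knockouts. For miR-708 in Mbnl2KO it was 0.374, and ranged from −4.91 without WT replicate 3 to 5.99 without WT replicate 1. The causes were not tested. miR-708-3p had only 4 to 35 reads per library.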

Other observations

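miRNAs whose hairpins all lie in introns of protein-coding genes on the same strand, as those of miR-28a, miR-151 and miR-708 do, made up 99 of the 317 tested in Mbnl1KO, where 96.2% of the tested miRNAs were matched to a gene by name. Of these 99, 7 rose and 17 fell (24.2% of them, against 33.1% of all tested), with a median log2 fold change of −0.12 against −0.01. Of all tested, 18.9% rose and 14.2% fell. In Mbnl2KO, 5 of 94 rose and 3 fell (8.51% against 5.8%), with a median of −0.04 against 0.02. Of all tested there, 3.41% rose and 2.39% fell. The list includes the 6 miRNAs described here, of which 4 passed in Mbnl1KO. Both arms of miR-708, treated as used in the choice, are among the 5 that rose in Mbnl2KO, so nothing is read from these shares. No test was run on the list.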
